A study of Mus musculus with 6 samples.

Results

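Clone A3 is 1 of 3 mouse embryonic stem (ES) cell clones, and it gave 2 of the 6 arrays of the series, 1 from control and 1 from induced cells. Its arrays were chosen by the clone name in the sample labels and were set against the 4 arrays of clones A1 and A4 over 45037 probe sets, with condition as a covariate. Each clone of the EBRTcH3 line, which descends from E14 cells, carried the coding sequence of human WBSCR1, the counterpart of mouse Eif4h, with a 3xFLAG tag at the ROSA26 locus under a promoter that tetracycline represses. Control cells of A1, A3 and A4 were grown with tetracycline (0 h without it) and induced cells were taken after 24 h without it, all as undifferentiated cells in medium with LIF. RNA was hybridized to Affymetrix GeneChip arrays of the mouse genome, and the values are log2 signals of the robust multiarray average (RMA). A3 is a single clone, so its difference from A1 and A4 describes these cultures and not clones in general, and the effects of the transgene and of the removal of tetracycline cannot be told apart. The labels call the arrays biological replicates but do not say that the cultures of a clone were grown apart, so p-values measure the spread between these 6 arrays.

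ES cells correspond to the early epiblast of the embryo before implantation. In medium with LIF a culture holds cells that shift between a naive state, marked by factors such as Nanog, Klf4 and Esrrb, and states nearer to the later, primed epiblast, marked by Otx2 and the Zic factors, with a few cells turning towards primitive endoderm or a state that resembles the embryo at its earliest cleavage. Clones picked from single cells are also known to differ in imprinted genes, in germline genes held silent by DNA methylation, and in the number of copies of chromosomes or chromosome segments.

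The A3 arrays read as ES cells by most of the genes chosen to mark them. Pou5f1 read 12.83 and 12.92 log2 in A3, 12.91 and 12.85 in A1 and 12.93 and 12.87 in A4, where the first value of each pair is the control and the second the induced array. Nanog read 12.20 and 12.15 log2 in A3, 12.27 and 12.26 in A1 and 12.23 and 12.41 in A4. A3 overlapped the other clones for Pou5f1, and for Nanog both A3 arrays lay below the other 4, by a difference of -0.12 ± 0.098 log2 (SE) that did not pass. Sox2 differed by 0.038 ± 0.17 log2 and Zfp42 by 0.0047 ± 0.10, and neither passed the test. Esrrb, also chosen as a marker of ES cells, passed as lower in A3 and is given below with the naive factors. Array medians lay between 5.11 and 5.19 log2. The A3 arrays stood apart from the others in the control transcripts that are added to every sample. All 24 probe sets for the poly-A controls Dap, Lys, Phe and Thr, bacterial RNAs added to the RNA before labelling, were higher on both A3 arrays than on the other 4, with means of 7.39 and 7.27 log2 in A3 against 5.97 to 6.35. The hybridization controls, added after labelling, did not move together, since BioC was 1.05 log2 higher in A3 and BioB 0.24 higher, while BioD was 0.27 and Cre 0.21 log2 lower. The probe set for the B1 repeat was higher in A3 (13.11 and 13.01) than in the other arrays (11.93 to 12.46), and the 18S ribosomal RNA probe sets overlapped. The excess of 3 prime over 5 prime signal of Actb, a sign of RNA quality, was 0.32 and 0.29 log2 in A3 and 0.40 to 0.45 in the others. The part of these differences in the results below was not tested, and array handling and clone cannot be told apart.

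**Figure D1:**
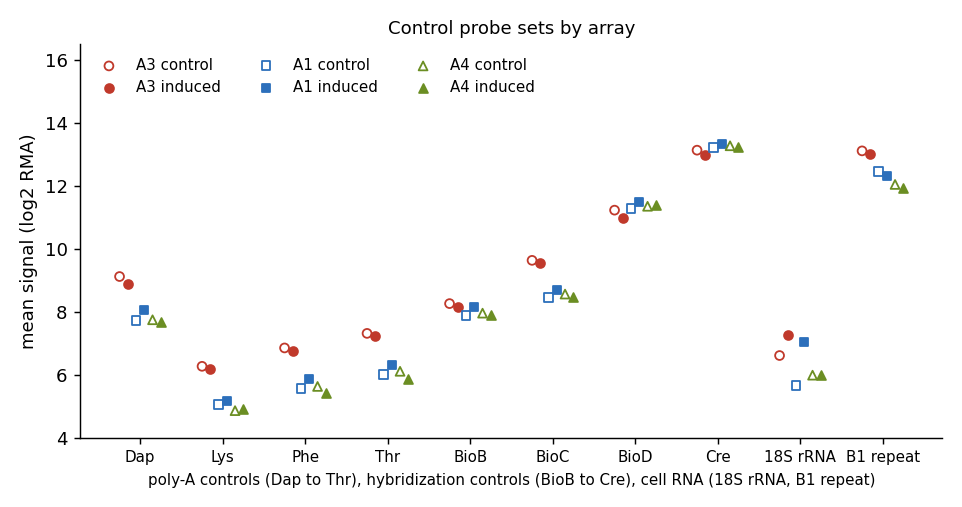
Mean log2 RMA signal (vertical axis) of the control probe sets named on the horizontal axis in each of the 6 arrays, with circles for A3, squares for A1 and triangles for A4, open for control and filled for induced arrays. Both A3 arrays lie above the other 4 for Dap, Lys, Phe, Thr, BioC and the B1 repeat and below them for BioD and Cre. For BioB they lie above only narrowly, with 8.16 log2 in induced A3 and 8.15 in induced A1.

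A3 differed from A1 and A4 far more widely than A1 and A4 from each other. Of 45037 probe sets, 4796 (10.6%) passed limma's test for A3 at an adjusted p under 0.05, 1973 higher (4.38%) and 2823 lower (6.27%), and 506 of them differed by at least 1 log2. All 4796 differences had the same sign among control and among induced arrays, which being called by this test largely ensures. Both A3 arrays lay outside the range of the other 4 for 4784 of them, against 36.4% of all probe sets. With a term for each clone the count was 4309 for A3, 300 for A1 against the others (0.666%), 219 for A4 against the others (0.486%) and 8 for A1 against A4 (0.0178%). The others include A3 for A1 and for A4, so the differences of A3 enter the 300 and the 219. The 2 A3 arrays differed from each other by at least 1 log2 at 8 probe sets, whereas each differed from each array of A1 and A4 at 536 to 942, and the A1 and A4 arrays differed among themselves at 38 to 142. Centring each array on its hybridization controls lowered every difference by 0.21 log2 and the median over all probe sets from 0.031 to -0.175. It gave 719 higher and 6313 lower in place of 1973 and 2823. The smallest adjusted p of limma was 3.29e-139 in that fit and 1.81e-06 in the main fit. The centred fit thus estimates the spread otherwise, and its counts do not compare with the others as calls. The count of the main fit depended on having both A3 arrays. It was 2088 without the control array of A3 and 965 without the induced array, where the lone A3 array is assumed to vary like the others, and 1883 without A1 and 2724 without A4.

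**Figure D2:**
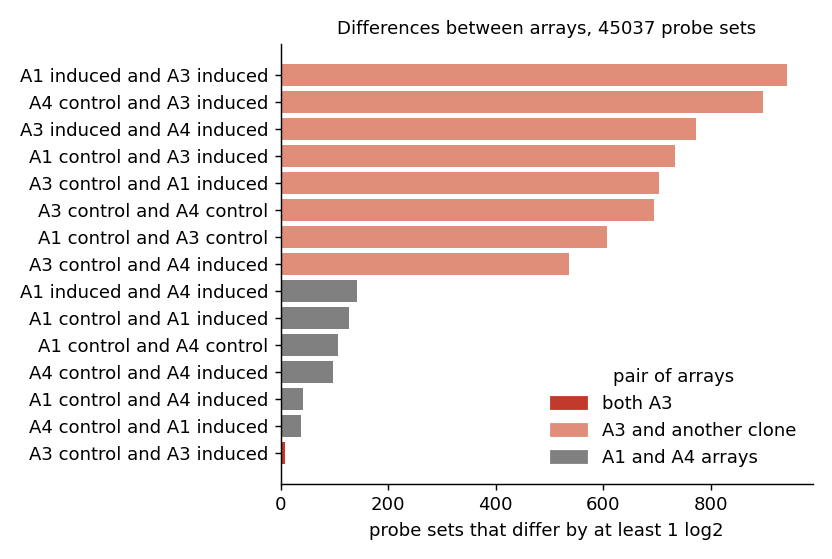
Number of probe sets of 45037 that differ by at least 1 log2 (horizontal axis) between the 2 arrays of each of the 15 pairs (vertical axis). Dark red is the pair of A3 arrays (8), light red the pairs of an A3 array with another clone (536 to 942) and grey the pairs among the A1 and A4 arrays (38 to 142).

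Taking the brightest probe set of each gene, 2307 of 18193 genes passed (12.7%), 1034 higher in A3 (5.68%) and 1273 lower (7%), and the median difference of all genes was 0.038 log2. Among 17404 autosomal genes 2206 passed (12.7%), 982 higher (5.64%) and 1224 lower (7.03%), with 117 higher and 124 lower by at least 1 log2. Of the 2206, 200 had a mean signal under 5 log2, near the dim end of the array. Among 9419 autosomal genes with a mean of at least 6 log2, 18.4% passed, 7.2% higher and 11.2% lower.

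The autosomal genes highest in A3 had unlike functions. Those named here are the 15 with the largest difference among genes past the test whose A3 arrays both lay outside the range of the other 4, which held for 41.6% of all 18193 genes. Aass, the enzyme that starts lysine breakdown in mitochondria, read 10.34 and 9.94 log2 in A3, 6.07 and 6.63 in A1 and 6.13 and 6.33 in A4. Its difference was 3.85 ± 0.17 log2, SE, adjusted p of limma 1.07e-05, the largest upward one among autosomal genes. Nnat, an imprinted gene for a small membrane protein of neurons and endocrine cells, read 7.72 and 7.64 log2 in A3, 3.98 and 3.85 in A1 and 4.49 and 4.13 in A4 (3.57 ± 0.15 log2, SE, adjusted p of limma 9.32e-06). For both genes A3 lay more than 3 log2 above every other array. Otx2, a homeobox factor of the epiblast and of the anterior brain, read 8.85 and 8.46 log2 in A3, 5.16 and 5.62 in A1 and 6.18 and 6.17 in A4. A3 was highest, and A4 lay above A1 in both conditions (2.88 ± 0.27 log2, SE, adjusted p of limma 0.000517). Nrp2, a coreceptor for semaphorins and vascular growth factors, had the same order of clones, with 9.23 and 9.01 log2 in A3, 6.04 and 6.23 in A1 and 6.73 and 7.05 in A4. Cldn6, a claudin of early embryonic epithelia, read 9.09 and 9.19 log2 in A3, 7.28 and 7.21 in A1 and 7.18 and 7.40 in A4, with A1 and A4 overlapping each other. The other 10 were the surface glycoprotein Cd99 (2.77 ± 0.16 log2), Ly6g6e of the Ly6 family (2.30 ± 0.16), the trypsin inhibitor Spink1 (2.21 ± 0.29), 1700042O10Rik (2.13 ± 0.14), the phosducin-like Pdcl2 (2.11 ± 0.26), the membrane proteins Serinc5 (2.04 ± 0.11) and Tmem45a (2.00 ± 0.097), the imprinted sarcoglycan Sgce (2.00 ± 0.11), Nlrp4a (1.97 ± 0.14), of a family expressed in oocytes, and Plac8 (1.84 ± 0.11).

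**Figure D3:**
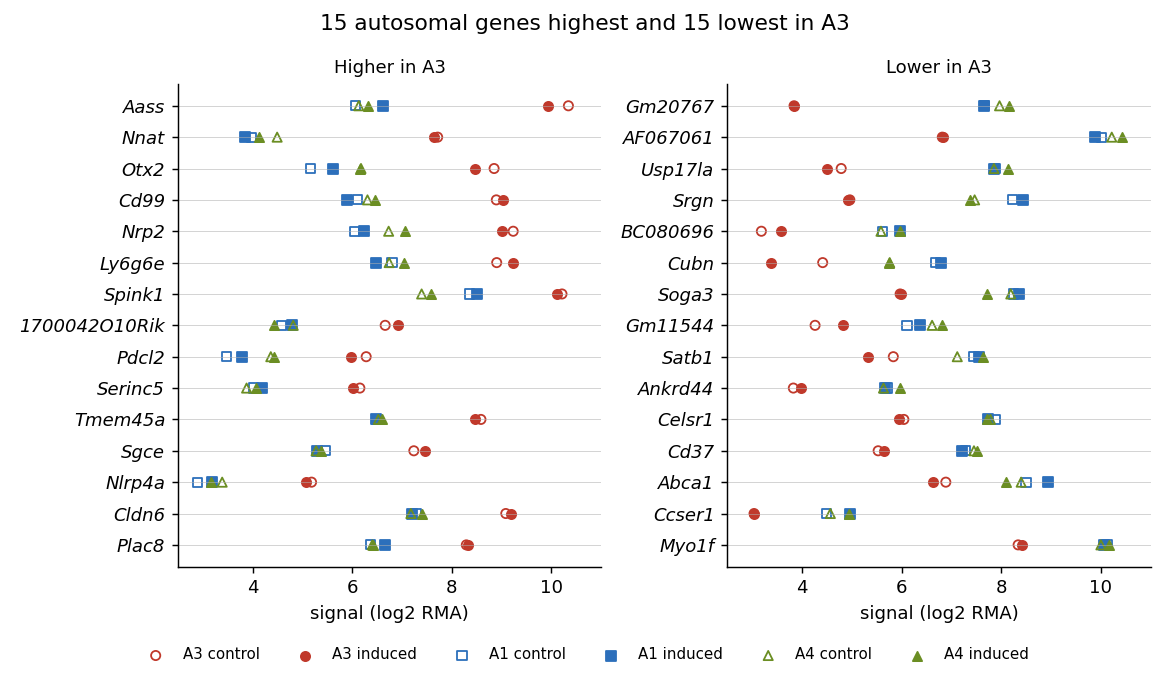
Signal (horizontal axis, log2 RMA) in each of the 6 arrays for the 15 autosomal genes highest (left) and the 15 lowest (right) in A3 among those past the threshold, ordered by the size of the difference, with circles for A3, squares for A1 and triangles for A4, open for control and filled for induced. By the choice of genes the A3 arrays are apart from the other 4, with differences of 1.84 to 3.85 log2 on the left and -4.02 to -1.71 on the right.

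The autosomal genes lowest in A3 included several with dim signals in A3 and bright ones in the other clones. Gm20767, a predicted gene, read 3.84 and 3.84 log2 in A3, 7.67 and 7.66 in A1 and 7.97 and 8.17 in A4 (-4.02 ± 0.15 log2, SE, adjusted p of limma 5.68e-06). AF067061 differed by -3.31 ± 0.15 log2, on a probe set of a kind that can also bind related transcripts. Usp17la, a deubiquitinase of a family of near copies, read 4.79 and 4.49 log2 in A3, 7.89 and 7.86 in A1 and 7.86 and 8.13 in A4. Srgn, the core protein of a proteoglycan of secretory granules, read 4.96 and 4.93 log2 in A3, 8.23 and 8.44 in A1 and 7.47 and 7.38 in A4, with A1 above A4. Cubn, the cubilin receptor through which absorptive epithelia take up proteins, read 4.42 and 3.38 log2 in A3, 6.68 and 6.79 in A1 and 5.76 and 5.75 in A4. Cubn was lowest in the induced A3 array and higher in A1 than in A4. Its difference was -2.35 ± 0.35 log2 (SE, adjusted p of limma 0.00366). With all 6 arrays the call was lost under limma's trend and robust options and under the t-test of the study's methods. It was also lost without the induced A3 array, where the difference was -1.80 log2. The others were BC080696 (-2.41 ± 0.090), Soga3 (-2.15 ± 0.16), Gm11544 (-1.93 ± 0.17), the chromatin organizer Satb1 (-1.86 ± 0.18), Ankrd44 (-1.84 ± 0.11), the planar polarity cadherin Celsr1 (-1.79 ± 0.093), the tetraspanin Cd37 (-1.78 ± 0.11), the cholesterol transporter Abca1 (-1.73 ± 0.21), Ccser1 (-1.71 ± 0.12) and the myosin Myo1f (-1.71 ± 0.096). Abca1 also lost its call without the induced A3 array (-1.56 log2) and under the t-test of the study's methods. Other probe sets of Satb1 and Ccser1 differed from the values given, since 3 of 5 for Satb1 and 1 of 2 for Ccser1 were lower.

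Genes of epithelial junctions were mostly higher in A3. Claudins and occludin seal tight junctions, cadherins hold adherens junctions, and Esrp1 and Esrp2 are splicing factors of epithelial cells. Of 23 measured members 13 were higher and 1 lower, against 5.68% higher and 7% lower among all genes, and the list's median difference was 0.46 log2. The claudins Cldn6, Cldn7, Cldn4, Cldn3 and Cldn9 were all higher. Cldn7 read 8.20 and 8.32 log2 in A3, 6.78 and 6.47 in A1 and 6.71 and 6.87 in A4. Cldn4 read 8.78 and 8.99 log2 in A3, 8.02 and 8.15 in A1 and 8.10 and 7.93 in A4. In both the groups were apart, by 1.55 ± 0.13 and 0.83 ± 0.11 log2 (SE). Esrp1 read 9.18 and 9.05 log2 in A3, 7.78 and 7.97 in A1 and 7.45 and 7.50 in A4. Esrp2 was higher by 0.71 ± 0.091 and Epcam, an adhesion molecule of ES cells and epithelia, by 0.59 ± 0.093 log2. Marveld2 (0.67 ± 0.097) and Ocln (0.40 ± 0.097), which join claudins in tight junctions, the scaffolds Tjp3 (0.88 ± 0.13) and Cgn (0.46 ± 0.098) and the cadherin Cdh3 (0.54 ± 0.13) were higher too. The member lower in A3 was the desmosomal cadherin Dsg2 (-0.61 ± 0.13). Cdh1, the E-cadherin of ES cells, differed by 0.23 ± 0.13 and did not pass, nor did the scaffold Tjp1 (-0.14 ± 0.12) or Jup (-0.39 ± 0.12). Without the induced A3 array 4 members were called higher and without the control A3 array 8, while the median stayed between 0.42 and 0.54 log2 in all fits that left out arrays or clones. Of the simple epithelial keratins, Krt19 was higher, at 8.02 and 8.30 log2 in A3, 5.99 and 6.05 in A1 and 6.33 and 6.90 in A4. Krt8 was lower, at 6.26 and 6.42 log2 in A3, 7.31 and 7.45 in A1 and 7.38 and 7.43 in A4. Krt18, its usual partner, differed by 0.044 ± 0.093 log2 and did not pass. Vimentin (Vim), a filament protein of mesenchymal and ES cells, was lower (-0.72 ± 0.091).

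Primed epiblast genes were higher in A3 for 8 of 18 members and lower for 1, with a median of 0.41 log2. The share called was 50%, beside 12.7% of all genes. Zic5 read 9.39 and 9.00 log2 in A3, 7.15 and 7.63 in A1 and 7.32 and 7.56 in A4. Zic2 read 6.69 and 6.10 log2 in A3, 5.20 and 4.92 in A1 and 5.17 and 5.42 in A4. Cdh2, the N-cadherin, read 6.78 and 6.79 log2 in A3, 5.45 and 6.05 in A1 and 5.48 and 5.17 in A4. These were apart from the other clones in both A3 arrays, as was Otx2. Zic5 lay in a stretch of neighbouring genes on chromosome 14 that were higher together, described below. Outside such stretches 7 members were higher and 1 lower. These 7 include Zic2, whose signal was too dim for it to be placed in gene order. The kinase Pim2 (1.10 ± 0.15), which is X-linked, the Wnt effector Lef1 (0.66 ± 0.12), Car14 (0.63 ± 0.10) and Sall2 (0.60 ± 0.13) were also higher. Sox3, an X-linked factor of epiblast and neural cells, was lower (-0.49 ± 0.12). Fgf5, a defining gene of the primed state, read 4.07 and 4.05 log2 in A3, 4.03 and 3.94 in A1 and 3.91 and 3.95 in A4, at the dim end of the array in every clone. Pou3f1 (0.15 ± 0.14) and Dnmt3b (0.33 ± 0.13) did not pass. The count of higher members was 3 without the control A3 array and 5 without the induced one.

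Naive pluripotency factors were lower for 5 of 16 members and higher for 1, with a median of -0.14 log2. In this list 37.5% were called, beside 12.7% of all genes and 18.4% of autosomal genes with a mean of at least 6 log2. Gbx2, a homeobox factor downstream of LIF, read 9.24 and 9.05 log2 in A3, 10.37 and 10.50 in A1 and 10.22 and 10.14 in A4 (-1.16 ± 0.13 log2, SE, adjusted p of limma 0.000897). Dppa3, a gene of the germline and the early embryo, went the other way, with 7.91 and 8.00 log2 in A3, 6.87 and 6.85 in A1 and 6.90 and 7.00 in A4. Both genes had A3 apart from every other array. The Klf factors Klf4 (-0.51 ± 0.11) and Klf5 (-0.44 ± 0.10), the DNA demethylase Tet2 (-0.53 ± 0.095) and the nuclear receptor Esrrb (-0.45 ± 0.11) were lower. Without the induced A3 array, without A1 or without A4, 1 member was called lower. The median of 15 core pluripotency factors was -0.12 log2 beside 0.038 for all genes. Of these factors 3 (20%) were lower (Dppa2 -0.53 ± 0.10, L1td1 -0.39 ± 0.091 and the repressor Rest -0.39 ± 0.10) and none higher. Without the control or the induced A3 array, without A1 or without A4 that count was 0, and Rest was lower on 2 of 4 probe sets.

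**Figure D4:**
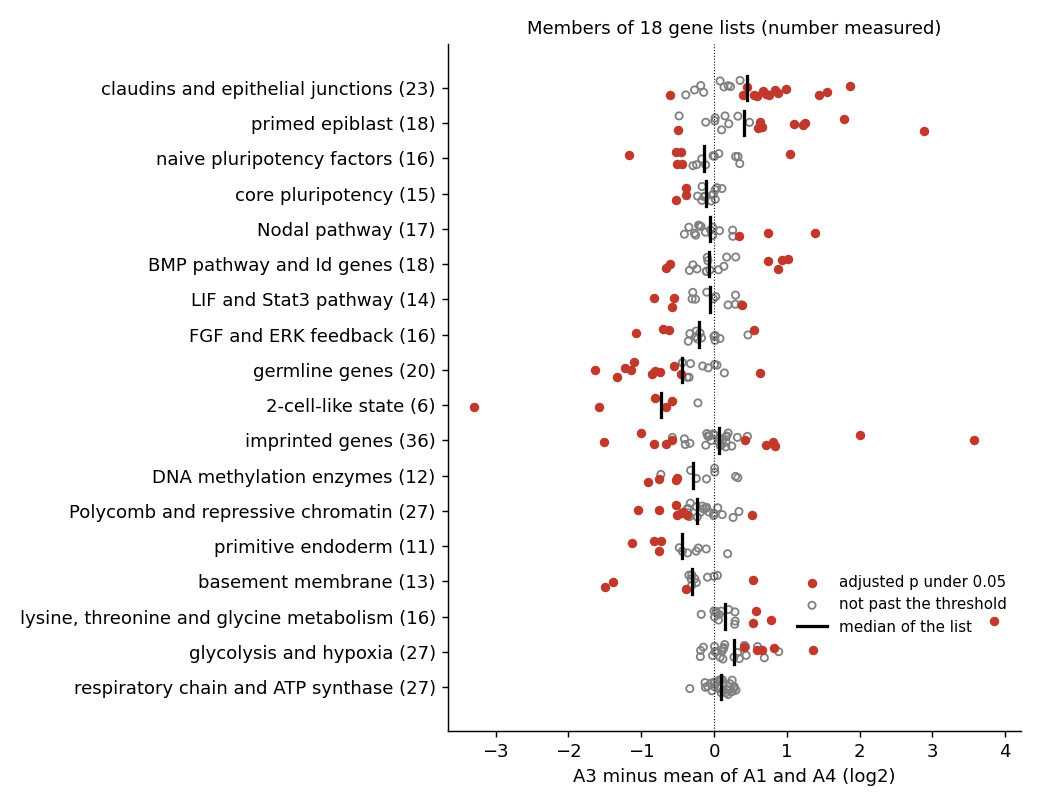
Difference of A3 from the mean of A1 and A4 (horizontal axis, log2) for each measured member of 18 gene lists, with the number of members in parentheses. Filled red circles passed the test, open circles did not, and black bars are the medians, which run from -0.74 for the 2-cell-like list to 0.46 for the claudins and epithelial junctions.

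Beside the 12.7% called among all genes, the share called was 17.6% in the Nodal pathway, 33.3% in the BMP pathway and 25% among FGF and ERK feedback genes. It was 28.6% in the LIF pathway and 15% in the Wnt pathway and among immediate early genes. The Nodal, Wnt and immediate early lists thus lay near the background, which was 18.4% among autosomal genes with a mean of at least 6 log2. In the Nodal pathway 3 of 17 members were higher and none lower. Lefty1 and Lefty2, the secreted inhibitors that Nodal signalling induces, were both higher. Lefty1 read 11.56 and 11.49 log2 in A3, 10.30 and 10.40 in A1 and 9.92 and 9.94 in A4. Lefty2 read 9.18 and 9.03 log2 in A3, 8.08 and 8.30 in A1 and 8.41 and 8.69 in A4. Both A3 arrays were above all others for each. Smad3, a transducer, was higher by 0.35 ± 0.094 log2, with an adjusted p of limma of 0.0661 once the clones were a block, while the ligand Nodal (-0.019 ± 0.13) and its coreceptor Tdgf1 (-0.12 ± 0.12) did not pass. The pathway's median of -0.050 log2 was 0.009 after a second quantile normalization, so it had no stable sign. In the BMP pathway 4 of 18 were higher and 2 lower. Id4 read 6.76 and 6.86 log2 in A3, 5.86 and 5.84 in A1 and 5.63 and 5.86 in A4. Id2 read 7.79 and 7.71 log2 in A3, 6.96 and 6.96 in A1 and 6.66 and 6.70 in A4. Id3 was higher by 0.75 ± 0.10 log2. These Id proteins, which block helix-loop-helix factors and are targets of BMP signals, were apart from the other clones, but Id1 (0.17 ± 0.10) did not pass. The receptor Bmpr1b was higher (0.88 ± 0.11), at a dim signal, and the ligand Bmp4 (-0.66 ± 0.12) and the transducer Smad1 (-0.60 ± 0.11) were lower. Among FGF and ERK feedback genes 3 of 16 were lower and 1 higher. Etv4, a target of ERK, read 8.81 and 8.75 log2 in A3, 9.93 and 9.73 in A1 and 9.82 and 9.91 in A4, and the inhibitors Spred1 (-0.70 ± 0.10) and Spry2 (-0.62 ± 0.11) were lower with it, while the receptor Il17rd was higher (0.55 ± 0.11). The feedback inhibitors of LIF signalling, Socs2 (-0.82 ± 0.13) and Socs3 (-0.58 ± 0.11), and the kinase Jak1 (-0.55 ± 0.098) were lower and Jak2 (0.39 ± 0.10, blocked adjusted p of limma 0.0716) higher among 14 measured LIF and Stat3 genes. Of 20 Wnt genes, Axin2 (-0.64 ± 0.097), the usual target gene of the pathway, and the receptor Fzd5 (-0.39 ± 0.10, blocked adjusted p of limma 0.0555) were lower and Lef1 higher. Over the fits that left out an array or a clone, the Nodal list had 1 to 2 higher members, the BMP list 4 higher and 0 to 2 lower, the LIF list 0 to 3 lower, the FGF list 1 to 4 lower and the Wnt list 0 to 2 lower. The immediate early list had 1 to 3 lower. Fzd5 was lower on 1 of 2 probe sets. Spry2 lies beside a stretch of neighbouring genes on chromosome 14 that were lower together, described below. Immediate early genes gave Egr1 higher (1.21 ± 0.14) and Jun (-0.85 ± 0.098) and Nr4a1 (-0.79 ± 0.10) lower, of 20.

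Of primitive endoderm genes 36.4% were called, beside 12.7% of all genes, with a median of -0.44 log2. In this list 4 of 11 members were lower and none higher. They were Gata6 (-0.73 ± 0.12) and Gata4 (-0.76 ± 0.14), the factors that specify this lineage, with Sox7 (-0.83 ± 0.20) and the adaptor Dab2 (-1.12 ± 0.24). Gata6 read 4.79 and 4.96 log2 in A3, 5.74 and 5.74 in A1 and 5.37 and 5.55 in A4. Dab2 read 5.71 and 5.87 log2 in A3, 7.13 and 7.47 in A1 and 6.44 and 6.62 in A4, so that A3 was below both other clones and A1 was highest. Gata4 was lower on 1 of 2 probe sets. None of the 4 was called without the control or without the induced A3 array, 1 was called without A1 and 5 members without A4. The endocytic partners of visceral endoderm, Cubn and its anchor Amn (-1.22 ± 0.23), were lower among 16 measured genes of uptake and secretion (12.5% called, beside 12.7% of all genes), and 0 to 3 were called lower in the fits that left out an array or a clone. Of 13 basement membrane genes 3 were lower and 1 higher (30.8% called), with a median of -0.31 log2. The collagen Col4a1 read 6.47 and 6.46 log2 in A3, 8.04 and 8.24 in A1 and 7.80 and 7.75 in A4. Its partner Col4a2 read 5.73 and 5.68 log2 in A3, 7.51 and 7.26 in A1 and 6.72 and 6.87 in A4. Both collagens were lower in A3 than in any other array, while the laminin chain Lamb1 was higher (0.53 ± 0.14) and Lamb2 lower (-0.39 ± 0.10, blocked adjusted p of limma 0.0657). In those fits 1 to 2 basement membrane genes were called lower. In bulk RNA fewer cells of a type and less RNA per cell cannot be told apart.

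Germline genes, which DNA methylation silences outside germ cells, were lower for 10 of 20 members and higher for 1, with a median of -0.44 log2. The share called was 55%, beside 12.7% of all genes. Mael and Piwil2 act in the piRNA pathway against transposons. Mael read 6.12 and 6.15 log2 in A3, 7.69 and 7.66 in A1 and 7.70 and 8.03 in A4. Piwil2 read 6.71 and 6.81 log2 in A3, 8.02 and 7.96 in A1 and 8.07 and 7.88 in A4. Slc25a31, a mitochondrial carrier of germ cells, read 4.17 and 4.08 log2 in A3, 5.57 and 5.59 in A1 and 5.25 and 5.41 in A4. Dazl, an RNA-binding protein of germ cells, read 6.91 and 6.59 log2 in A3, 7.77 and 7.77 in A1 and 7.90 and 8.14 in A4. In each of these A1 and A4 lay close together and A3 was lower by over 1 log2. Mov10l1, the helicase of piRNA processing (-1.11 ± 0.12), Stk31 (-0.85 ± 0.12), Syce1 of the synaptonemal complex (-0.74 ± 0.12), the meiotic cohesin Smc1b (-0.55 ± 0.13) and the X-linked Tex11 (-0.81 ± 0.17) and Taf7l (-0.45 ± 0.096) were lower too. Sycp3, another synaptonemal complex protein, was higher (0.63 ± 0.12). Ddx4 (-0.37 ± 0.32), Sycp1 (-0.43 ± 0.13) and the other 7 did not pass. Without the induced A3 array 5 members were called lower and without the control A3 array 6. Piwil2, Mov10l1 and Smc1b lay in stretches of neighbouring genes that were lower together, described below, and outside such stretches 7 were lower and 1 higher.

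Promoters of such genes often carry CACGTG, an E-box that reads the same on both strands and is bound by Max and related factors, or TCCCGC, a site of E2f6. They were searched, on both strands, in the RefSeq promoters of build GRCm38.p6, 250 bases before to 50 after each start, which held 8 of the 10 lower genes. CACGTG stood in 15 of 22 promoters of 18 measured members (68.2%) against 7.15% of all 32851 promoters, TCCCGC in 9 (40.9%) against 20.0%, and both in 8 (36.4%) against 1.99%. The share with CACGTG was 66.7% over 9 promoters of the lower members and 69.2% over 13 promoters of the other measured members, so the letters did not mark those that were lower in A3. The windows below show, 5′ to 3′ on the gene's strand, where the E-box (in capitals) lies in the promoters of lower members. They are chr1:166238950-166238979 on the minus strand for Mael, chr3:40708766-40708795 on the plus strand for Slc25a31, chr15:88982744-88982773 on the plus strand for Mov10l1, chr6:49395472-49395501 on the plus strand for Stk31 and chrX:134476522-134476551 on the minus strand for Taf7l.
Mael: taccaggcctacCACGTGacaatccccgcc
Slc25a31: cgcaactggaaaCACGTGttatggtcacat
Mov10l1: ccttCACGTGctaaccgccaacctctcgtg
Stk31: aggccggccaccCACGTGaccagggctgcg
Taf7l: accctcttatacCACGTGacagaactcgcc

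Genes of the 2-cell-like state, a rare state of ES cultures with transcripts of the early embryo, were mostly lower in A3, with a median of -0.74 log2. This held for 5 of 6 measured members (83.3% called, beside 12.7% of all genes). After Usp17la, Arg2, a mitochondrial arginase, read 3.86 and 3.52 log2 in A3, 5.18 and 5.39 in A1 and 5.20 and 5.29 in A4. Tcstv1 (-0.81 ± 0.11) and Tcstv3 (-0.58 ± 0.13), at dim signals, and Zfp352 (-0.66 ± 0.10) were lower as well, and Spz1 (-0.22 ± 0.092) did not pass. Without the induced A3 array 2 were called. The list had 11 genes, and the other 5, Zscan4c, Zscan4d, Zscan4f, Dux and Tdpoz4, had no probe set named for them alone.

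Imprinted genes went both ways, 6 of 36 higher and 5 lower (30.6% called, beside 12.7% of all genes), with a median of 0.072 log2. In the fits that left out an array or a clone 4 to 6 were called higher and 2 to 6 lower, the 2 without the induced A3 array and without A1. Sgce read 7.24 and 7.46 log2 in A3, 5.46 and 5.29 in A1 and 5.28 and 5.37 in A4, but its neighbour Peg10, which is expressed from the same parental chromosome, read 4.65 and 4.13 log2 in A3, 5.17 and 4.61 in A1 and 4.78 and 4.65 in A4 and did not pass. Impact (0.82 ± 0.10), Snrpn (0.72 ± 0.11), Magel2 (0.42 ± 0.096) and Ascl2 (0.84 ± 0.13) were higher. Cdkn1c, a brake on the cell cycle, read 8.36 and 8.26 log2 in A3, 9.89 and 10.11 in A1 and 9.81 and 9.47 in A4. In the same imprinted domain Phlda2 (-0.82 ± 0.093) and the noncoding Kcnq1ot1 (-1.01 ± 0.16) were lower, but Ascl2, given above, was higher. H13 (-0.58 ± 0.10) and Dlk1 (-0.66 ± 0.15) were lower too. H13 was lower on 2 of 6 probe sets and Dlk1 on 1 of 2. Meg3, Rian and Mirg, the noncoding RNAs of the domain of Dlk1, differed by -0.084 to 0.12 log2 and did not pass. The probe sets of Plagl1 disagreed. The brightest differed by 0.16 log2 (adjusted p of limma 0.523), while another read 7.02 and 7.05 log2 in A3 and 3.31 to 3.84 in the other arrays, a difference of 3.43 ± 0.14 (SE), and Plagl1 was singled out after its values were seen.

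Genes of DNA methylation and demethylation were lower for 4 of 12 members and higher for none, with a median of -0.28 log2. In this list 33.3% were called, beside 12.7% of all genes and 18.4% of autosomal genes with a mean of at least 6 log2. Tet1, which oxidizes methylcytosine, read 10.63 and 10.20 log2 in A3, 11.34 and 11.24 in A1 and 11.32 and 11.36 in A4 (-0.90 ± 0.11 log2, SE, adjusted p of limma 0.00179), and Tet2, the methylation cofactor Uhrf1 (-0.51 ± 0.10) and Gadd45b (-0.76 ± 0.13) were lower. The methyltransferases Dnmt1 (-0.32 ± 0.13), Dnmt3a (0.0096 ± 0.11), Dnmt3b and Dnmt3l (0.30 ± 0.098) did not pass. Of 27 Polycomb and repressive chromatin genes 7 were lower and 1 higher (29.6% called), with a median of -0.23. Cbx5, the heterochromatin protein HP1 alpha, read 10.80 and 10.65 log2 in A3, 11.92 and 11.75 in A1 and 11.85 and 11.59 in A4. Cbx7, the main Polycomb reader of ES cells, read 9.25 and 9.25 log2 in A3, 10.13 and 9.84 in A1 and 10.08 and 9.96 in A4. Both lie on chromosome 15 in stretches that were lower together. Chd4 (-0.51 ± 0.090), Bmi1 (-0.53 ± 0.11), Jarid2 (-0.45 ± 0.10), Ring1 (-0.42 ± 0.099) and Kdm2b (-0.38 ± 0.099) were lower and Ezh1 was higher (0.52 ± 0.11), on 2 of 4 probe sets. Without the control or the induced A3 array 2 Polycomb genes and 1 DNA methylation gene were called lower.

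In metabolism the shares called stand beside 12.7% of all genes and 18.4% of autosomal genes with a mean of at least 6 log2. The lysine, threonine and glycine list had 4 of 16 members higher (25%) and none lower, with a median of 0.15 log2. Beside Aass these were Dhtkd1 (0.58 ± 0.12) and Aldh7a1 (0.54 ± 0.098), which act later in lysine breakdown, and Gldc, the glycine decarboxylase, at 10.86 and 10.94 log2 in A3, 10.10 and 10.09 in A1 and 10.03 and 10.27 in A4. Aldh7a1 was higher on 1 of 3 probe sets, and 2 to 4 members were called in the fits that left out an array or a clone. Of 27 glycolysis and hypoxia genes 5 were higher and none lower (18.5% called), with a median of 0.27. Bnip3, a mitophagy receptor induced by low oxygen, read 12.10 and 12.02 log2 in A3, 10.17 and 10.52 in A1 and 10.87 and 11.29 in A4, so A3 was highest and A4 lay above A1. P4ha1 (0.82 ± 0.16), Mxi1 (0.41 ± 0.097), Pfkp (0.66 ± 0.16) and Tpi1 (0.60 ± 0.15) were higher. The count was 0 without either A3 array and 9 without A4, and the list's median was 0.34 log2 lower in A1 than in A4. Of 27 genes of the respiratory chain and ATP synthase limma called 0, with 7 at an unadjusted p under 0.05 and 0 called by the methods' t-test, and with a median of 0.098. Among 19 cholesterol synthesis genes (21.1% called) Ebp, which is X-linked, was higher (0.71 ± 0.099) and Idi1 (-0.59 ± 0.12), Hmgcs1 (-0.48 ± 0.12) and Lss (-0.35 ± 0.092) lower. With the clones as a block the adjusted p of limma was 0.05 for Hmgcs1 and 0.0639 for Lss, and 0 to 2 members were called lower in the fits that left out an array or a clone.

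The share called was 12.7% of all genes and 18.4% of autosomal genes with a mean of at least 6 log2. Among stress and growth genes it was 35.7% for heat shock and 26.7% for oxidative stress. Nearer to the 18.4% lay interferon and MHC genes (21.1%) and actin and YAP targets (18.8%). It was 10.5% to 14.8% for the integrated stress response, the endoplasmic reticulum, p53 and cell cycle lists. In the fits that left out an array or a clone each of these lists had 0 to 3 members called in either direction. Of 14 heat shock genes the small chaperone Hspb8 was higher, at 8.11 and 8.45 log2 in A3, 6.71 and 6.56 in A1 and 6.81 and 6.82 in A4, with its partner Bag3 (0.69 ± 0.12). Hspa1a (-0.83 ± 0.15), Hspa1b (-1.10 ± 0.18) and Hsp90aa1 (-0.54 ± 0.092) were lower. Hspa1a and Hspa1b are near copies whose probe sets may share signal. In the integrated stress response Stc2 (0.70 ± 0.15), Slc6a9 (0.51 ± 0.11) and Asns (0.41 ± 0.097) were higher and Wars (-0.74 ± 0.096) lower, of 27. The 4 oxidative stress genes called, of 15, were lower, namely Nqo1 (-0.68 ± 0.13), Gclc (-0.56 ± 0.092), Gclm (-0.65 ± 0.18) and Srxn1 (-0.36 ± 0.097). With the clones as a block Gclm (adjusted p of limma 0.0689) and Srxn1 (0.0719) were not called. Among 32 cell cycle genes the licensing factor Cdc6 read 9.20 and 9.06 log2 in A3, 10.21 and 10.47 in A1 and 10.25 and 10.16 in A4, and Rb1 (-0.85 ± 0.12) and Ccnd1 (-0.55 ± 0.13) were lower and Cdk2 higher (0.45 ± 0.11). Of 16 p53 targets 1 was higher (Sesn1 0.36 ± 0.091, blocked adjusted p of limma 0.0585) and 1 lower (Aen -0.44 ± 0.097), and of 19 endoplasmic reticulum chaperones Dnajc3 was higher (1.20 ± 0.18) and Creld2 lower (-0.55 ± 0.11). Of 19 interferon and MHC genes Irf1 (0.74 ± 0.098), Ifitm1 (0.67 ± 0.11) and Bst2 (0.48 ± 0.095) were higher and Psmb9 lower (-0.41 ± 0.099). Tropomyosins Tpm1 (0.62 ± 0.096) and Tpm2 (0.58 ± 0.095) and calponin Cnn2 (0.65 ± 0.13) were higher among 16 actin and YAP target genes.

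Of 25 translation initiation factors 4 were lower (16% called, beside 12.7% of all genes) and none higher, with a median of 0.00059 log2 that turned negative under other scalings. Eif5, which triggers GTP hydrolysis in start codon recognition, read 10.62 and 10.53 log2 in A3, 11.60 and 11.64 in A1 and 11.61 and 11.66 in A4, apart from the other clones. Eif5b (-0.57 ± 0.091), Eif3a (-0.56 ± 0.13) and Eif4b (-0.41 ± 0.096) were lower by less, and 1 to 4 members were called lower in the fits that left out an array or a clone. Eif5 and Eif4b lie in stretches of neighbouring genes that were lower together. L1td1 was lower among 7 measured Lin28 and oncofetal genes. The 6 probe sets of mouse Eif4h differed by -0.37 to -0.17 log2 in A3, and none passed (adjusted p of limma 0.066 to 0.329). The brightest of them, with 12.10 and 11.89 log2 in A3, 12.25 and 12.53 in A1 and 12.23 and 12.38 in A4, differed by -0.35 ± 0.12 log2 (SE). The inserted sequence is that of the human gene without untranslated regions, and which of these probe sets can detect it was not analysed here.

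Markers of other cell types were called at a share near or below the 12.7% of all genes, 12.5% for fibroblast and feeder genes, 13.3% for neural ectoderm, 15.4% for trophectoderm and 6.25% for primitive streak and mesoderm. Of 16 fibroblast and feeder genes Loxl1 was higher (0.65 ± 0.13) and Twist1 lower (-1.01 ± 0.16), while the collagens that mark these cells, Col1a1 (0.16 ± 0.13), Col1a2 (0.038 ± 0.10) and Col3a1 (0.0093 ± 0.11), did not pass and read at most 5.16 log2. Loxl1 was higher on 1 of 2 probe sets. Snai1 was lower (-0.40 ± 0.095) among 16 genes of primitive streak and mesoderm, a call that was lost in all 9 fits that left out arrays or a clone (adjusted p of limma 0.0586 to 0.309). Ncam1 (-0.54 ± 0.10) and Map2 (-0.54 ± 0.12) were lower among 15 neural ectoderm genes, with Pax6 at 0.41 ± 0.11 and Sox1 at -0.052 ± 0.11 not past the test. Of 13 trophectoderm genes Tfap2c, which is also expressed in primed cells and the germline, read 9.21 and 9.01 log2 in A3, 7.75 and 8.19 in A1 and 7.92 and 8.17 in A4 and Ascl2 was higher with it, while in the fits that left out an array or a clone the fibroblast list had 0 to 1 called in either direction, the neural list 0 to 3 lower and the trophectoderm list 1 to 2 higher. Cdx2 was low in all clones, at 4.93 and 4.92 log2 in A3, 4.59 and 4.76 in A1 and 5.09 and 4.77 in A4.

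Some of the calls were neighbours on a chromosome. Genes with a mean of at least 6 log2 were put in gene order, and stretches were taken where the median difference over 15 neighbours reached 0.5 log2 in size. As these stretches were chosen for their values after these were seen, their counts are a description, beside 18.4% called among 9419 expressed autosomal genes (7.2% higher and 11.2% lower). On chromosome 12 a stretch of 32 expressed genes from Papola to Klc1 had 27 lower in A3 and 25 called lower, with a median of -0.72 log2. It held the cyclin Ccnk, partner of a kinase that acts on RNA polymerase II (-1.47 ± 0.13), the dynein heavy chain Dync1h1 (-1.37 ± 0.12), the transcription factor Yy1 (-1.06 ± 0.11), Eif5, Hsp90aa1, Wars, Amn and Dlk1. The 15 genes before it had a median of 0.11 and the 15 after it -0.005. Its median was -0.78 in the control and -0.73 in the induced A3 array relative to the mean of A1 and A4, and between -0.05 and 0.05 in the other 4 arrays.

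The end of chromosome 14 held a pair of stretches of opposite sign. From Ccar2 to Mycbp2, 55 of 57 expressed genes were lower in A3 and 46 were called lower, with a median of -0.84 log2. Among them were Piwil2, Rb1, the nuclear export factor Xpo7 (-0.90 ± 0.14), the general transcription factor subunit Gtf2f2 (-1.44 ± 0.11), Fgf17 (-0.96 ± 0.11), the formin Diaph3 (-1.16 ± 0.14) and Klf5. With windows of 25 genes this stretch ran on to Spry2, with 60 of 62 genes lower. From Gpr180 to Tmtc4, the last 16 expressed genes of the chromosome, all 16 were higher and 14 were called, with a median of 0.89. They included the importin Ipo5 (0.91 ± 0.093), the kinase Stk24 (1.02 ± 0.12), Pcca (1.06 ± 0.14), a subunit of propionyl-CoA carboxylase, Dnajc3 and Zic5. Zic2, whose mean was under 6 log2, was not placed in this order. On the far part of chromosome 15, 112 of 206 expressed genes from Pla2g6 to Itga5 were called lower (54.4%) and 3 higher, with a median of -0.44, and of the 197 before them 45 were called lower (22.8%), with a median of -0.17. Krt8, Cbx5, Cbx7, Eif4b, Nr4a1, Mov10l1, Smc1b, Creld2 and Celsr1 lie in the part from Pla2g6 to Itga5. The same search on the difference of A1 from A4 found 0 stretches. Over all 17404 autosomal genes, dim ones included, 12.7% were called. Leaving out all stretches, 2030 of these genes remained called (11.8%), and the stretches held 176 calls, 7.98% of the autosomal total. On chromosome 15 the stretches cover only a part of the region from Pla2g6 to Itga5. Among expressed genes outside stretches on the other autosomes 1478 of 8907 were called. The arrays measure RNA only, and gene copy number was not analysed here.

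**Figure D5:**
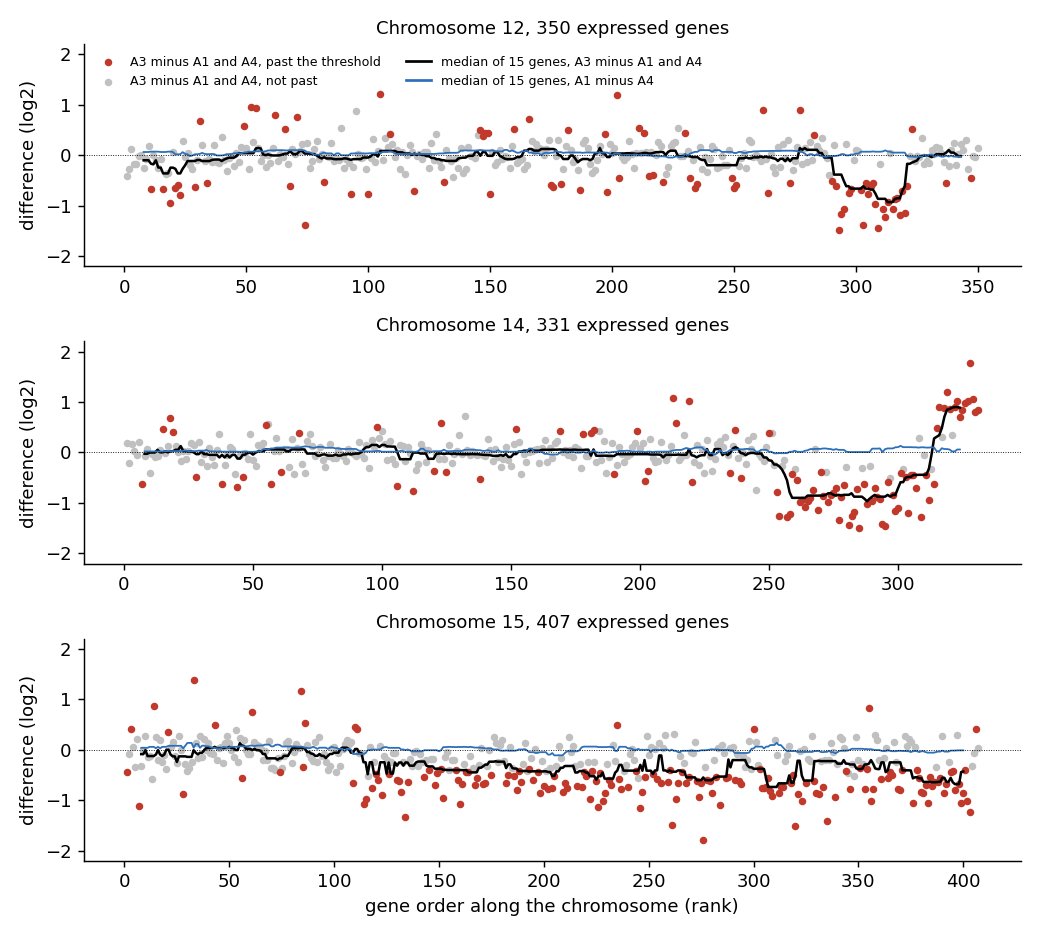
Difference in log2 (vertical axis) of expressed genes in their order along chromosomes 12, 14 and 15 (horizontal axis, rank), with red points for genes past the test for A3 against A1 and A4 and grey points for the others. The black line is the median of 15 neighbouring genes for A3 minus A1 and A4, which reaches below -0.5 on all 3 chromosomes and above 0.5 at the end of chromosome 14, and the blue line is the same for A1 minus A4, which stays near 0.

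On the X chromosome 92 of 617 genes passed, 48 higher and 44 lower, beside 12.7% of all genes (5.68% higher and 7% lower). Of 294 X-linked genes with a mean of at least 6 log2, 22.4% passed, beside 18.4% of such autosomal genes. Rhox5, a homeobox gene of placenta and reproductive organs that DNA methylation silences, read 5.70 and 5.68 log2 in A3, 9.53 and 9.74 in A1 and 9.98 and 9.90 in A4 (-4.10 ± 0.13 log2, SE, adjusted p of limma 3.04e-06), the largest difference of any gene taken. Its relatives Rhox6 (1.23 ± 0.15) and Rhox9 (0.71 ± 0.13) were higher. Mid1, a ubiquitin ligase (-1.96 ± 0.24), and Dcaf12l1 (-1.09 ± 0.13) came next among the lower genes, while Fmr1nb (2.06 ± 0.12), Efhc2 (2.03 ± 0.11) and the lysophosphatidic acid receptor Lpar4 (1.83 ± 0.14) were the highest. Of 9 Y-linked genes 2 passed, Uba1y, at 3.19 ± 0.53 log2 (SE) and named after its value was seen, and Eif2s3y, at 9.45 and 9.24 log2 in A3, 8.43 and 8.65 in A1 and 8.76 and 8.91 in A4, which was higher on 1 of 2 probe sets. Uty read 7.03 and 6.93 log2 in A3, 4.16 and 4.43 in A1 and 6.57 and 6.80 in A4, so that A1 was below the other clones and the difference of A3 from the mean of A1 and A4 (1.49 ± 0.70) did not pass. Zfy2, Kdm5d, Usp9y and Sry overlapped between the clones.

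Whether A3 responded to induction otherwise than A1 and A4 was tested by an interaction term. Of 45037 probe sets limma called 0 (0.00%), with 3036 at an unadjusted p under 0.05 and a smallest adjusted p of 0.711. The named gene with the smallest p, the glutamate receptor subunit Grik3, read 7.12 and 6.26 log2 in A3, 6.61 and 7.07 in A1 and 6.69 and 7.32 in A4. The induced array was lower than the control array in A3 and higher in the other clones, a difference in response of -1.40 ± 0.22 log2 (SE, adjusted p of limma 0.713). The deacetylase Sirt1 (-1.08 ± 0.18), Gm11772 (-1.07 ± 0.18), the scavenging chemokine receptor Ackr3 (-1.06 ± 0.18) and the endocytic Fcho2 (-0.99 ± 0.18) followed with the same adjusted p. In simulated data of this layout, with 50 changed probe sets at each size, the test recovered 0% of differences of 1 log2 and 54% of those of 2 log2. Differences in response near 1 log2 were not detectable in that setting with 6 arrays.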

How the data were processed

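Embryonic stem cells of clones A1, A3 and A4 were measured on 6 Affymetrix GeneChip arrays of the mouse genome, 1 for each clone in each condition. The authors deposited 1 log2 value for each probe set and array, made with the robust multiarray average (background correction, quantile normalization and probe summary) of affy (no version given in the sources used here). Quantile normalization is part of this method and was applied to probes before they were summarized, so a shift of most genes in A3 would have been largely removed. The medians of the deposited values still ran from 5.113 to 5.185 log2. Of 45101 probe sets, 64 controls were described apart and 45037 were tested in limma 3.58.1 (R 4.3.3) with terms for condition and for A3 (3 residual degrees of freedom, two-sided), and p-values were adjusted by Benjamini-Hochberg over all 45037 with a threshold of 0.05. The response to induction was tested by an interaction term. No plain t-test was used for a main result. The study's methods name a t-test, which was run as an alternative with the same adjustment.

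Gene symbols came from the platform annotation and were updated through RefSeq. 34945 probe sets had 1 symbol, 932 several and 9160 none, and of those with 1 symbol 34741 matched. For each of 18193 genes the probe set with the highest mean was taken. The clone and the gene lists were chosen with earlier results of these data known, so the lists were described by counts and medians and not tested. Of 741 listed members (39 lists) 677 were measured. Genes were named by rule: all Eif4h probe sets, 5 markers (Otx2, Cldn6, Aass, Nnat and Cubn), the 15 highest and 15 lowest autosomal genes past the threshold with both A3 arrays outside the range of the others, up to 4 members of each list with the smallest p, the 3 highest and 3 lowest X-linked genes, the Y-linked list and the 5 genes with the smallest p for the response. Other list members and genes of chromosome stretches were named after their values were seen. The order of genes came from RefSeq annotation of GRCm38.p6, while the array values carry no coordinates.

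The replicate numbers pair the arrays, since each number is 1 clone in the labels. The deviations of same-clone arrays from their condition means correlated at 0.313 (A1), 0.67 (A3) and 0.29 (A4). These means include A3, whose differences enter the deviations of A1 and A4, so the values do not measure pairing in A1 and A4. The same-clone arrays differed by at least 1 log2 at 127 probe sets for A1 and 97 for A4. Across these clones it was 106 for the control arrays and 142 for the induced arrays. It was 41 for control A1 with induced A4 and 38 for control A4 with induced A1. The test was run on simulated data of this layout, with independent noise and 50 changed probe sets at each size. There it recovered 12% of differences of 0.5 log2, 94% of 1 log2 and 100% of 1.5 log2 between A3 and the others, with 14 false calls. The arrays themselves gave 4796 calls, and with more calls the adjusted threshold is less strict. These rates therefore hold for the simulated setting and do not give the recovery in the data. The number of arrays limits the precision.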

Additional observations from a re-analysis of the deposited data

Results flagged for a closer look

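Control probe sets, which belong to no comparison between the clones, differed on the A3 arrays. The poly-A controls were higher in A3 than in A1 and A4 by 1.20 log2 for Dap, 1.23 for Lys, 1.18 for Phe and 1.21 for Thr, with each of the 24 probe sets above all 4 other arrays. Of the hybridization controls, BioC was higher by 1.05 log2 and BioB by 0.236, while BioD was lower than in all other arrays, by a difference of -0.272, and so was Cre, by -0.206. The probe set for the B1 repeat was higher by 0.876. The fifth poly-A control, Trp, was near the dim end of the array and overlapped (0.092). Their part in the differences between genes was not tested, because amounts of control RNA, array handling and clone cannot be told apart with 1 array for each clone and condition.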

How the results depend on the processing

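Of 190 named genes 152 were called, and all 152 kept their direction under each of 18 to 20 settings, while 54 stayed past the threshold under every one and 70 under all that kept every array. Of the 30 largest autosomal differences 22 stayed past it throughout, and 6 were lost under the methods' t-test alone. That test lost 80 named genes, leaving out the induced A3 array 75, the control A3 array 59, A1 55 and A4 33. With the clones as a replicate block the count for A3 was 4309, and 9 named genes lost their call (Smad3, Jak2, Fzd5, Lamb2, Hmgcs1, Lss, Sesn1, Gclm and Srxn1). The count for A3 was 2974 (1579 lower) with 1 probe set for each symbol and 506 (234 higher, 272 lower) with at least 1 log2. It was 7260 (3269 higher) at an adjusted p under 0.1 and 1380 (594 higher, 786 lower) with the methods' t-test. Centring on the hybridization controls gave 719 higher and 6313 lower, counts that do not compare with these as calls. Leaving out arrays or clones gave 965 to 3911 (440 to 1588 higher, 525 to 2323 lower). The count for A1 was 467 with 1 probe set, 665 with trend and robust options, 84 with at least 1 log2 and 611 at an adjusted p under 0.1. That for A4 was 141 over brighter probe sets, 522, 58 and 526 under the last 3 of these, and that for A1 against A4 was 3 with 1 probe set. The median of chromosome 15 was -0.208 log2 over genes of at least 5 log2, -0.287 against A1 alone and -0.267 against A4 alone.

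The 8 genes that reversed were not called. Usp9y was -0.0098 with medians subtracted, -0.0042 with quantile normalization, -0.036 with cyclic loess and -0.071 to 0.11 without single arrays or clones. Without both the control A4 and the induced A1 array Kdm5d was -0.040 and Sry -0.034. Without single arrays or clones Tbx6 ran from -0.0088 to 0.46, Kdm5d from -0.014 to 0.25, Sry from -0.10 to 0.24, Grik3 from -0.93 to 0.47, Sirt1 from -0.74 to 0.34, Ackr3 from -0.0020 to 1.05 and Fcho2 from -0.45 to 0.54, each as the difference of A3 in level. The response to induction had 0 calls under each alternative run, with a smallest adjusted p of limma between 0.0782 and 0.711. The causes were not tested. The 3 residual degrees of freedom and the dim probe sets, 200 of the 2206 autosomal calls, limit these results, and leaving out an A3 array leaves 1 array for that clone.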
